A study of Mus musculus with 12 samples.

Results

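The cadherins and non-clustered protocadherins are cell surface proteins that hold cells together in a calcium-dependent way. The protein-coding genes with the symbol stem Cdh, Cdhr or Pcdh followed by a number were taken as members, and the clustered protocadherin genes (Pcdha, Pcdhb and Pcdhg) were left out. Of 40 such genes, 36 had at least 10 counts summed over 12 libraries and were kept, out of 52636 genes in the tables. The remaining 4 genes were Cdh3 with 6 counts in all, and Cdh16, Cdh17 and Cdhr5 with 1 count each.

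RNA of the dentate gyrus, the part of the hippocampus that holds the granule cells, was sequenced from C57BL/6 mice, 3 libraries in each of 4 groups. KO animals lack Fst, the gene for follistatin, and WT animals carry it. The Fst vector group is labelled as overexpressing and received an adeno-associated virus of serotype AAV9 carrying Fst under a promoter labelled CB, whereas the GFP vector group consists of KO animals given the same kind of vector carrying the fluorescent protein GFP. The labels give no age for any group, no genotype for the Fst vector group, and no construct or cell type for the knockout. Of the replicates the labels say that every group has samples from different mice, which can be read as 1 mouse or several mice per library, so p-values here measure the spread between these libraries. Libraries are named as in their titles; for the replicates F1 and M2 of KO and of WT, the title and the description disagree on sex.

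Cadherins bind through repeated extracellular domains, mostly to the same cadherin on the neighbouring cell. The cytoplasmic tails of classical cadherins bind beta-catenin and p120-catenin and so reach the actin cytoskeleton, while protocadherins lack that catenin link and use other partners. In the hippocampus members of the family are known for sorting axons to their targets and for building synapses, for example Cdh9 at the contacts that granule cell axons make on CA3 neurons. Follistatin is secreted and traps activins and related ligands before they reach their receptors, whose signal is carried into the nucleus by SMAD proteins.

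Cdhr1, Cdh23 and Cdh24 were, with Cdh4, the members with the smallest p between the vector groups in edgeR's quasi-likelihood test. The 250 bases before the annotated starts of Cdhr1, Cdh23 and Cdh24 are printed to show the sequence next to each gene, in the direction of transcription. The sequences are from RefSeq on GRCm38.p6. Capitals mark CAGAC or, for a match on the other strand, GTCTG, the short motif that SMAD proteins are known to bind.
Cdhr1 (chr14:37098348-37098597, minus strand): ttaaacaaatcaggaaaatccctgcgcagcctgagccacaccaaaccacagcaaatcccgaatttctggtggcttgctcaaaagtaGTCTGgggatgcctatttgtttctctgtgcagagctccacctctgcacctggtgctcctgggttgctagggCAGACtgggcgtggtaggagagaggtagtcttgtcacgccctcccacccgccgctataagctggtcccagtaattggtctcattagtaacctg
Cdh23 (chr10:60696491-60696740, minus strand): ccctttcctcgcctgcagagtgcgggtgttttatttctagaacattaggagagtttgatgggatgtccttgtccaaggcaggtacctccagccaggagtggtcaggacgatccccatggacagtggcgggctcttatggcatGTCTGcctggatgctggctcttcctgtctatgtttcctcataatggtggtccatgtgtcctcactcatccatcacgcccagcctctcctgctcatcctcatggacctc
Cdh24 (chr14:54641365-54641614, minus strand): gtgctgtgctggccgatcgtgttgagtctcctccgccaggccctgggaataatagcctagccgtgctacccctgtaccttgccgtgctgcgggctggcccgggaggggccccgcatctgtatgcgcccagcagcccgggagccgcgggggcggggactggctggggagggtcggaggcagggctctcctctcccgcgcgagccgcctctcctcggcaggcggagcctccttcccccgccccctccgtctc

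The Cdhr1 window held 2 matches to CAGAC on either strand, the Cdh23 window held 1 and the Cdh24 window held 0. The motif is short, and 42.2% of the 32851 promoter windows of the same length held it. Of the 26 members with a window in the table, 14 held it in at least 1 window. The longer palindrome GTCTAGAC was in none of these 3 windows and in 0.167% of all windows. GC content was 53.2% for Cdhr1, 54.4% for Cdh23 and 72.8% for Cdh24.

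Total counts ran from 8081824 to 11331337 per library. A count of 3, used here as the floor, equals 0.265 to 0.371 CPM, that is, counts scaled by the library's total, and such floors cover counting error only. Fst itself had 2, 4 and 2 counts in KO libraries, against 34, 33 and 51 in WT libraries, and 2078, 1870 and 1497 counts in Fst vector libraries, against 0, 1 and 0 in GFP vector libraries. All 9 markers of dentate granule cells were detected in all 12 libraries, at 1624 to 2301 CPM in sum. The library GFP F stood apart with 5890 CPM summed over 5 astrocyte markers, against 1260 to 2513 CPM in the other 11 libraries. Fst M2, Fst F, GFP M2, KO M2 and WT F1 had 0.0115% to 0.0209% of their counts on ribosomal RNA genes, while the 7 remaining libraries had at most 0.00098%.

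A few genes, with protocadherins at the top, made up most of the family's RNA in the dentate gyrus when scaled by exon length. Levels between genes are compared as mean CPM per kb of exon length over the 12 libraries, where Pcdh8 stood at 55.0 ± 16.5, Pcdh1 at 49.1 ± 10.3, Pcdh20 at 36.6 ± 10.3, Cdh9 at 26.3 ± 3.91, Cdh2 at 19.5 ± 2.33 and Pcdh19 at 11.01 ± 3.26 (SD, n = 12). These first 5 genes held 67.5% to 72.8% of the members' summed CPM per kb in a library, and the first 10 held 82.2% to 89.0%. Pcdh1 lay above Pcdh20, Cdh9 above Cdh2 and Cdh2 above Pcdh19 in all 12 libraries, whereas the order of Pcdh8 and Pcdh1 went with the table. Pcdh8 lay above Pcdh1 in all 6 vector libraries and below it in all 6 KO and WT libraries. Of the 35 pairs of neighbours in the order, 28 differed by less than the larger SD of the pair. That SD is the spread between libraries and not the error of a mean, and the order of neighbours was not tested. Cdhr1 was in place 13 with 2.99 CPM per kb and Cdh23 in place 29 with 0.409 CPM per kb.

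**Figure D1:**
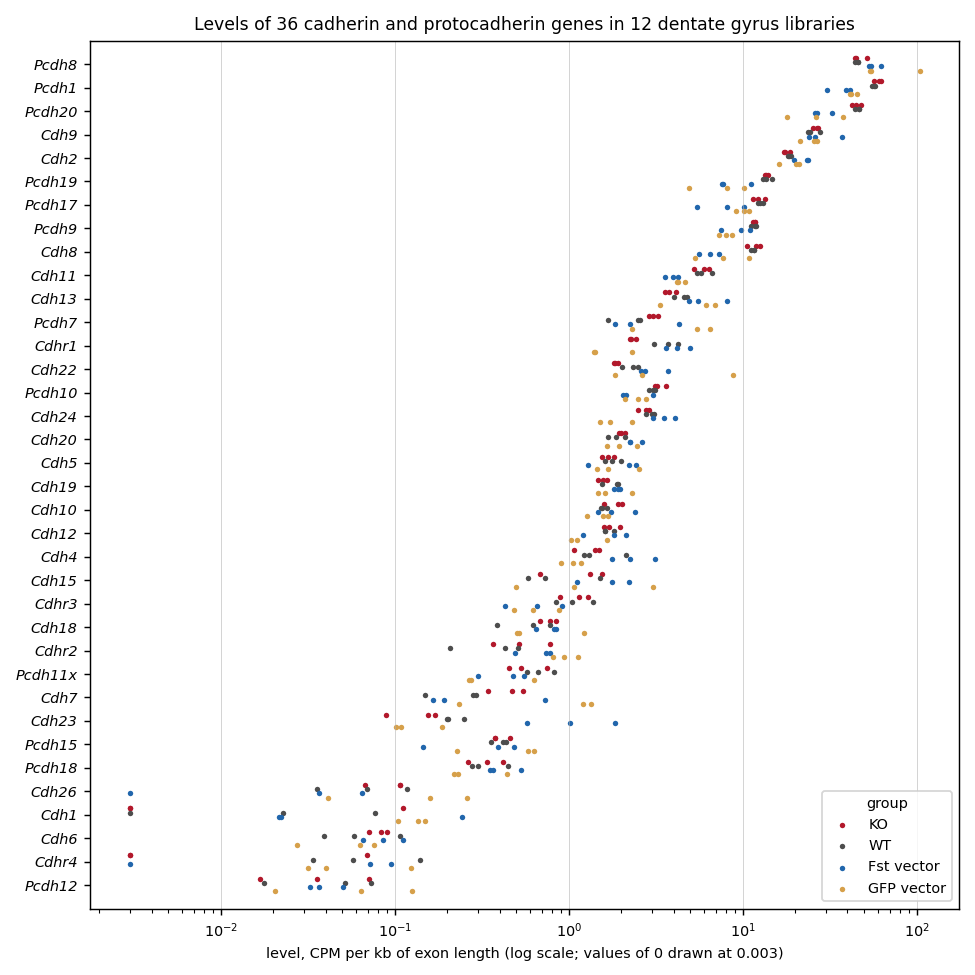
Level of each of the 36 members in each of the 12 libraries, in CPM per kb of exon length on a log axis, with 1 point per library coloured by group and genes in order of their mean. Pcdh8 (mean 55.0), Pcdh1 (49.1) and Pcdh20 (36.6) lie at the top, the Cdh23 points of the Fst vector group lie to the right of all its other points, and values of 0 occur for Cdh1, Cdh26 and Cdhr4.

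Pcdh8, also called arcadlin, is a protocadherin induced by neuronal activity that takes N-cadherin from the synaptic surface. Its counts were 204, 234 and 200.2 CPM in KO libraries (M1, F1, M2, the order used for KO and WT throughout), against 209.5, 199 and 209 CPM in WT libraries. It had 249, 240.2 and 284 CPM in Fst vector libraries (M1, M2, F, the order used for both vector groups), against 243, 248 and 473 CPM in GFP vector libraries. The library GFP F lay far above all the others, and the 2 vector groups overlapped. Pcdh1, a delta-1 protocadherin, had 531, 549 and 502 CPM in KO libraries, against 508, 499.5 and 485 CPM in WT libraries. Its values were 347, 366 and 268 CPM with the Fst vector, against 397, 365 and 368 CPM with the GFP vector. Every vector library lay below every KO and WT library for Pcdh1.

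Pcdh20, a protocadherin outside the delta groups, had 246, 233 and 263 CPM in KO libraries, against 242, 256 and 255 CPM in WT libraries. With the Fst vector it had 146, 179 and 143 CPM, against 208, 144 and 98.9 CPM with the GFP vector. Pcdh19, an X-linked protocadherin whose human counterpart is mutated in a form of epilepsy, had 141, 146 and 143 CPM in KO libraries, against 143, 154 and 137 CPM in WT libraries. Its values with the Fst vector were 80.2, 116 and 79.2 CPM, against 106, 84.9 and 51.2 CPM with the GFP vector. For both genes the KO and WT libraries lay close together and the vector libraries lay lower, with GFP F the lowest.

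Cdh9, the type II cadherin of the mossy fibre contact, had 95.2, 95.4 and 89.2 CPM in KO libraries, against 85.8, 98.3 and 84.0 CPM in WT libraries. It had 84.6, 92.5 and 132 CPM with the Fst vector, against 75.2, 91.4 and 94.7 CPM with the GFP vector. Cdh2, or N-cadherin, the main classical cadherin of neuronal contacts, had 142, 151 and 139 CPM in KO libraries, against 148, 152 and 148 CPM in WT libraries. It had 158, 189 and 192 CPM with the Fst vector, against 131, 170.4 and 163 CPM with the GFP vector. For both cadherins the groups of each comparison overlapped.

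At the other end, 5 members did not pass the filter on low counts in either comparison, and 31 were tested in both. These 5 were Cdh1, the epithelial E-cadherin, at 0 to 10 counts per library, Cdh6 at 2 to 10, Cdh26 at 0 to 8, Cdhr4 at 0 to 4 and Pcdh12, a protocadherin of blood vessels, at 1 to 8. Where such a gene had 0 counts it was not detectable at this depth, and no difference between groups is given for the 5.

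The comparison of KO with WT asks which genes differ in animals without follistatin. Cdhr1 was lower in all 3 KO libraries, Cdh23 was lower as well, and Pcdh7 and Cdh7 were higher, but no member passed the threshold of 0.05 on the adjusted p. In edgeR's quasi-likelihood test with Benjamini-Hochberg adjustment over all genes, 0 of 31 members passed, where 0.0268% of the 14919 genes tested did. At an unadjusted p under 0.05 there were 6 of 31 members, against 5.96% of all genes. Of these, 3 were higher, against 2.95% of all genes, and 3 were lower, against 3.01%. DESeq2 also called 0 members, with 3 at an unadjusted p under 0.05. The libraries of the 2 groups did not overlap for 6 members, against 11% of all genes. Cdhr1 and Cdh23 are among the members counted at the unadjusted p and here. Both had been named in the choice of the members with results of these data known, so these shares are not evidence about the family. In bulk tissue, fewer cells of a type and less RNA per cell cannot be told apart.

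Cdhr1 encodes a cadherin-related protein known from photoreceptor outer segments and from the output neurons of the olfactory bulb, and it lies on chromosome 14 from 37077857 to 37098347 (GRCm38, minus strand). It had 9.77, 10.6 and 9.85 CPM in KO libraries, against 16.1, 18.4 and 13.4 CPM in WT libraries. The highest KO library lay below the lowest WT library, and the KO libraries lay closer together than the WT libraries. The log2 fold change of KO over WT was -0.64 ± 0.14 (SE), with an adjusted p of 0.13 in edgeR's quasi-likelihood test.

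Cdh23, on chromosome 10 from 60302748 to 60696490 (minus strand), encodes the upper part of the tip link of inner ear hair cells and is mutated in Usher syndrome in humans. It had 2.90, 1.499 and 2.64 CPM in KO libraries, against 3.36, 3.43 and 4.24 CPM in WT libraries, which is 14 to 27 counts against 32 to 48. The libraries did not overlap, and KO F1 was the lowest. Its log2 fold change was -0.63 ± 0.28, with an adjusted p of 0.806, and -0.40 without KO F1. Its partner in the tip link, Pcdh15, averaged 9.63 ± 1.17 CPM in KO and 9.58 ± 0.973 CPM in WT libraries (SD, n = 3 each).

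Pcdh7, a delta-1 protocadherin of brain, had 30.5, 34.7 and 32.2 CPM in KO libraries, against 26.7, 27.2 and 17.9 CPM in WT libraries. Every KO library lay above every WT library, and WT M2 was the lowest. This gave a log2 fold change of 0.46 ± 0.13, with an adjusted p of 0.41, and of 0.28 without WT M2. Pcdh7 shares 2235 exon bases with a transcript on the opposite strand that had 176 counts in all, and since how strand was handled is unknown here, reads of that stretch cannot be assigned.

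Cdh7, a type II cadherin, had 3.44, 4.71 and 5.49 CPM in KO libraries, against 2.94, 1.502 and 2.82 CPM in WT libraries. The groups did not overlap, although KO M1 was near WT M1. The estimate was 0.91 ± 0.27 on the log2 scale, with an adjusted p of 0.451. Cdh10, another type II cadherin, had 16.1, 19.2 and 20.4 CPM in KO libraries, against 16.7, 15.3 and 15.6 CPM in WT libraries, a log2 change of 0.24 ± 0.12 (adjusted p 0.837). Its groups overlapped, since KO M1 lay below WT M1.

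Cdh13, or T-cadherin, is held to the membrane by a lipid anchor and has no cytoplasmic tail. It had 40.4, 46.6 and 42.5 CPM in KO libraries, against 53.7, 45.3 and 51.6 CPM in WT libraries, with a log2 change of -0.20 ± 0.09 (adjusted p 0.802). KO F1 and WT F1 overlapped. Cdh22, a type II cadherin of brain and pituitary, had 6.77, 6.85 and 7.11 CPM in KO libraries, against 8.61, 9.22 and 7.501 CPM in WT libraries, with a log2 change of -0.27 ± 0.17 (adjusted p 0.933). Its groups did not overlap, but the gap between KO M2 and WT M2 was small.

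Pcdh10, a delta-2 protocadherin that takes part in synapse elimination, had 50.1, 51.3 and 57.2 CPM in KO libraries, against 49.8, 48.6 and 45.7 CPM in WT libraries, a log2 change of 0.16 ± 0.08 (adjusted p 0.873). The groups were separated by less than 1 CPM. Pcdh11x, an X-linked delta-1 protocadherin, had 7.41, 6.32 and 10.5 CPM in KO libraries, against 11.5, 8.04 and 9.27 CPM in WT libraries, a log2 change of -0.23 ± 0.18 (adjusted p 0.936), with overlap; it ran from -0.47 without KO M2 to -0.08 without WT M1. Pcdh1 had a log2 change of 0.10 ± 0.06 (adjusted p 0.894) on the values given above.

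Over the whole family the changes went both ways. The log2 estimate was above 0 for 18 members and below 0 for 13, with a median of 0.02, where the median over all genes was 0.00. The median size of the log2 change, regardless of sign, was 0.11 for the members and 0.08 for all genes, beside a median SE of 0.15 for the members and 0.11 for all genes. Among the 12 type II cadherins tested, 7 were above 0 and the median was 0.06. The 5 delta-2 protocadherins lay between -0.01 and 0.16, with Pcdh8 at 0.06 ± 0.06 and Pcdh19 at 0.00 ± 0.06. The 3 type I cadherins were Cdh2 at -0.04 ± 0.06, Cdh4 at -0.20 ± 0.19 and Cdh15 at 0.31 ± 0.34. Beside these values, 2 of 17 cell type marker lists had sums that did not overlap, where 11% of all genes did not overlap. Newborn neuron markers (5 of 6 detected in every library) summed to 109 to 111 CPM in KO and 125 to 126 CPM in WT libraries. Cajal-Retzius markers (5 of 5) summed to 83.0 to 90.9 CPM in KO and 109 to 118 CPM in WT libraries. No marker of either list was at 0 throughout a group, and the part of these cells in the members' values was not tested.

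The comparison of the vector groups, Fst against GFP, asks which genes differ when follistatin is supplied by a vector. The cadherin genes Cdh23, Cdhr1, Cdh4 and Cdh24 had the smallest p of the members in edgeR's quasi-likelihood test. All 4 were higher with the Fst vector, by 8.29-fold for Cdh23, 2.44-fold for Cdhr1, 2.21-fold for Cdh4 and 1.88-fold for Cdh24. Cdh7, lower with the Fst vector at a log2 change of -1.42, had a larger estimate in size than Cdhr1, Cdh4 and Cdh24. None passed the threshold in the unpaired test, where 0 of 31 members passed in edgeR's quasi-likelihood test, against 0.0798% of the 15034 genes tested. At an unadjusted p under 0.05 there were 4 of 31 members, against 9.51% of all genes. All 4 were higher, against 4.34% of all genes, and 0 were lower, against 5.16%. Cdhr1 and Cdh23 are among these 4. Both had been named in the choice of the members with results of these data known, so these shares are not evidence about the family. DESeq2 called 3 members (Cdh23, Cdh4 and Cdhr1) and had 6 at an unadjusted p under 0.05. With the replicate as a block, edgeR called Cdh23 (log2 3.02, adjusted p 0.00538) and Cdhr1 (log2 1.31, adjusted p 0.0487). No label states this pairing. It was taken from correlations between these same libraries, so these calls are not independent of the data that gave the pairing.

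**Figure D2:**
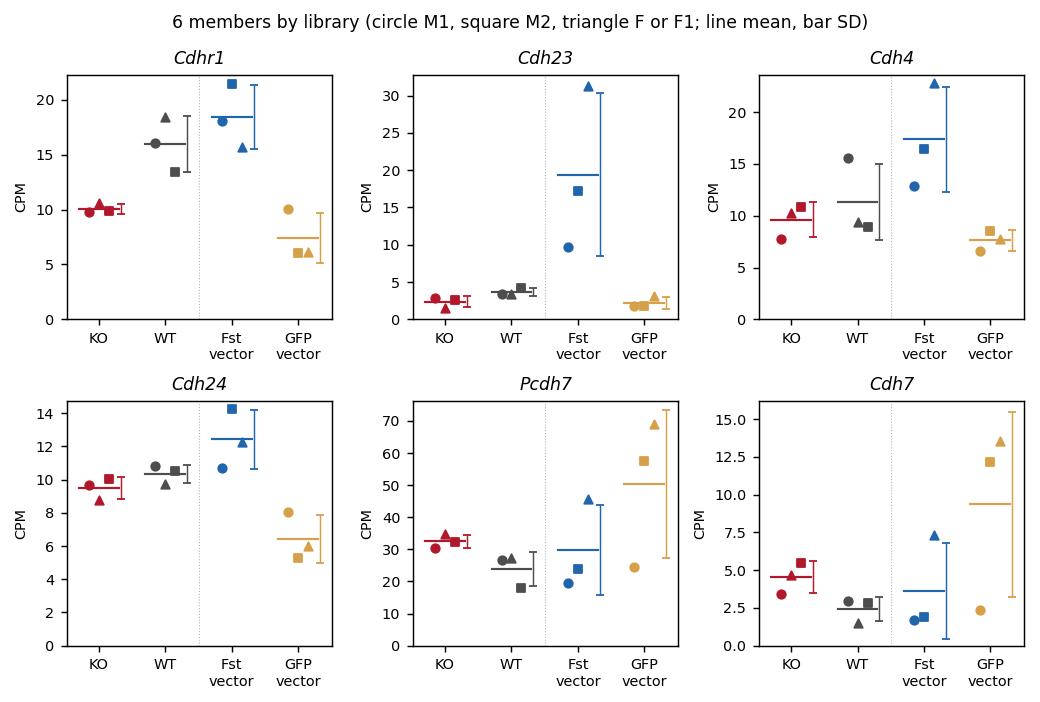
CPM of 6 members in every library by group, with points for libraries (circle M1, square M2, triangle F or F1), a line at the mean and a bar for the SD (n = 3); each axis starts at 0. For Cdhr1 the KO (9.77 to 10.6) and GFP vector (6.04 to 10.02) libraries lie below the WT (13.4 to 18.4) and Fst vector (15.7 to 21.5) libraries, and for Cdh23 the Fst vector libraries (9.72 to 31.3) lie above all the others.

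Cdh23 had 9.72, 17.2 and 31.3 CPM in Fst vector libraries, against 1.73, 1.85 and 3.15 CPM in GFP vector libraries, which is 99 to 283 counts against 14 to 33. The lowest Fst vector library lay above the highest library of any other group, but the 3 libraries spread widely, with Fst F far above Fst M1. The log2 fold change was 3.05 ± 0.47, with an adjusted p of 0.102. When the 5 libraries with more ribosomal RNA were left out, Fst M1 alone was set against GFP M1 and GFP F, and the log2 fold change was 1.96 (adjusted p 0.87). The gene Vsir lies inside Cdh23 on the other strand and shares no exon bases with it. Vsir differed little between the groups, with a log2 change of 0.01 ± 0.20. Pcdh15, the other tip link gene, had a log2 change of -0.56 ± 0.50 (adjusted p 0.786), opposite in sign to Cdh23.

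Cdhr1 had 18.1, 21.5 and 15.7 CPM in Fst vector libraries, against 10.02, 6.04 and 6.11 CPM in GFP vector libraries. The groups did not overlap, and GFP M1 was the highest of its group and close to the KO libraries. The log2 fold change was 1.29 ± 0.24, with an adjusted p of 0.138. Without GFP M1 the adjusted p was 0.0408, and without each other library it ran from 0.212 to 0.576. Among the libraries low in ribosomal RNA the log2 fold change was 1.15 (adjusted p 0.87), and in the same way KO over WT gave -0.50 (adjusted p 0.427). The other cadherin-related genes tested had log2 changes of -0.56 ± 0.30 for Cdhr2, a cadherin of the intestinal brush border, and -0.04 ± 0.36 for Cdhr3. Cdhr2 had 3.04, 2.03 and 3.21 CPM with the Fst vector, against 3.34, 3.90 and 4.67 CPM with the GFP vector, without overlap (adjusted p 0.622).

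Cdh4, or R-cadherin, is a type I cadherin close to Cdh2 and lies on chromosome 2 from 179442431 to 179899373 (plus strand). It had 12.9, 16.4 and 22.8 CPM in Fst vector libraries, against 6.56, 8.57 and 7.73 CPM in GFP vector libraries. The groups did not overlap, and as for Cdh23 Fst F was the highest and Fst M1 the lowest of the Fst vector libraries. The log2 fold change was 1.14 ± 0.24, with an adjusted p of 0.173. Cdh2 itself had a log2 change of 0.18 ± 0.14 and Cdh15, the muscle M-cadherin, one of 0.09 ± 0.60.

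Cdh24, a type II cadherin, lies on chromosome 14 from 54631231 to 54641364 (minus strand). It had 10.7, 14.3 and 12.3 CPM in Fst vector libraries, against 8.04, 5.26 and 6.01 CPM in GFP vector libraries. The groups did not overlap, and the KO and WT libraries lay between them at 8.78 to 10.8 CPM, apart from a small overlap with Fst M1. The log2 fold change was 0.91 ± 0.23, with an adjusted p of 0.248. Cdh12, a neuronal type II cadherin, had 7.66, 11.5 and 13.4 CPM with the Fst vector, against 7.05, 10.5 and 6.49 CPM with the GFP vector, a log2 change of 0.40 ± 0.27 (adjusted p 0.716). Its groups overlapped.

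On the lower side the largest estimates were those of Cdh7 and Pcdh7. Cdh7 had 1.67, 1.92 and 7.31 CPM in Fst vector libraries, against 2.35, 12.2 and 13.5 CPM in GFP vector libraries, a log2 change of -1.42 ± 0.79 (adjusted p 0.658). Pcdh7 had 19.6, 24.0 and 45.6 CPM in Fst vector libraries, against 24.5, 57.6 and 68.9 CPM in GFP vector libraries, a log2 change of -0.80 ± 0.46 (adjusted p 0.674). In both genes GFP M1 lay inside the range of the Fst vector group, but each Fst vector library lay below the GFP vector library of the same name. With the replicate as a block the estimates were -1.42 ± 0.41 for Cdh7 (adjusted p 0.174) and -0.77 ± 0.18 for Pcdh7 (adjusted p 0.112). Leaving out 1 library moved Cdh7 between -2.42 without Fst F and -1.07 without GFP F, and Pcdh7 between -1.24 without Fst F and -0.51 without GFP F. Pcdh17, a delta-2 protocadherin of axons and presynaptic sites, had 70.6, 105 and 132 CPM with the Fst vector, against 119, 132 and 142 CPM with the GFP vector, a log2 change of -0.39 ± 0.20 (adjusted p 0.617), or -0.61 without Fst F and -0.19 without Fst M1. Pcdh1 had a log2 change of -0.24 ± 0.15 (adjusted p 0.677), with overlap.

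Over all 31 members, 19 estimates were above 0 and 12 below, with a median of 0.04 on the log2 scale and 0.01 over all genes. The groups did not overlap for 5 members (Cdh23, Cdh24, Cdh4, Cdhr1 and Cdhr2), against 16.5% of all genes, a share near the 16.1% of the members. Of the 12 type II cadherins 8 were above 0, of the 4 delta-1 protocadherins 2, and of the 5 delta-2 protocadherins 2. Of the 17 cell type marker lists, 2 had higher sums with the Fst vector without overlap and 1 had lower sums, beside the 16.5% of all genes. Oligodendrocyte sums (5 of 5 detected in every library) did not overlap, at 1401 to 1671 CPM with the Fst vector and 1048 to 1215 CPM with the GFP vector. The same held for thalamus and habenula (5 of 6), at 53.0 to 80.9 CPM with the Fst vector and 39.3 to 51.2 CPM with the GFP vector. CA1 markers (4 of 4) summed to 51.6 to 59.3 CPM with the Fst vector and 65.8 to 72.0 CPM with the GFP vector. The part of these cells in the members' values was not tested.

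**Figure D3:**
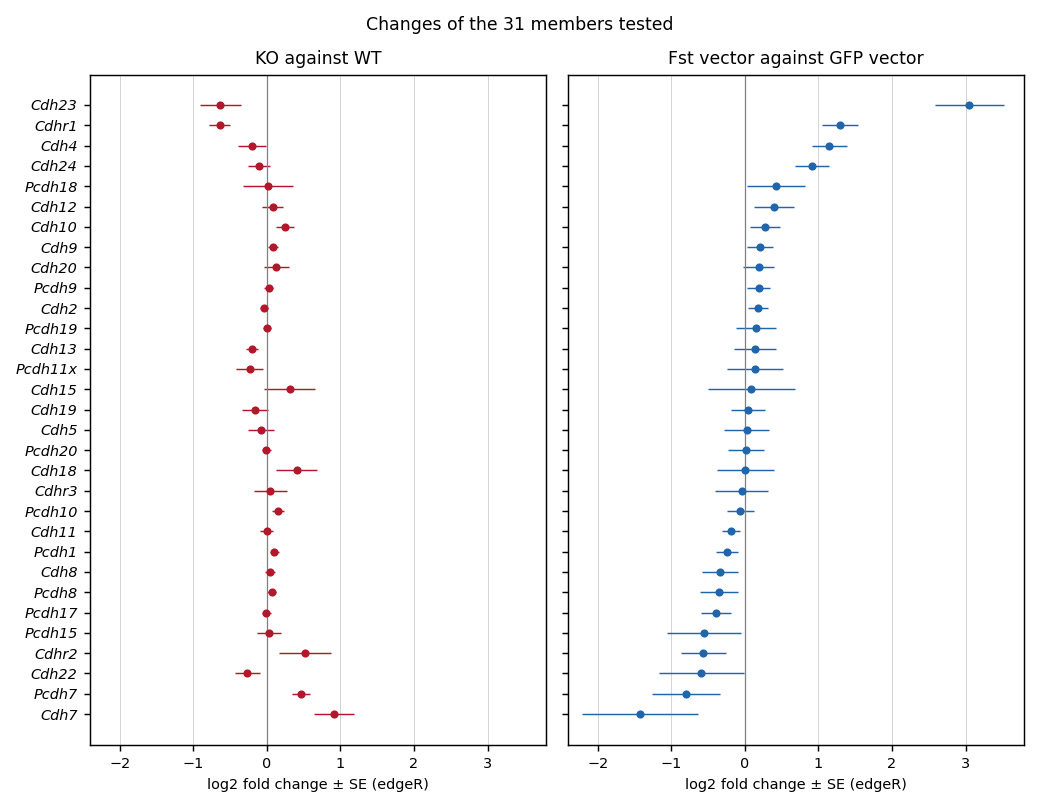
Log2 fold changes of the 31 tested members with their standard errors from edgeR, KO over WT on the left and Fst vector over GFP vector on the right, in the order of the estimates on the right. Cdh23 (-0.63 on the left, 3.05 on the right) and Cdhr1 (-0.64 and 1.29) lie on opposite sides of 0 in the 2 panels, as do Pcdh7 (0.46 and -0.80) and Cdh7 (0.91 and -1.42).

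Fst had at most 4 counts in any KO or GFP vector library, so the 2 comparisons were set against each other, and they share no library. Their other sides are unlike, with Fst at 166 to 204 CPM in Fst vector libraries and 3.54 to 4.50 CPM in WT libraries. The labels give no genotype for the Fst vector group, and the part of dose or genotype was not tested. The difference of the effects was the log2 change of Fst vector over GFP vector less that of KO over WT. It was fitted on all 12 libraries, so that a shift between the tables cancels. That fit shares its estimate of the spread between all groups, although the vector groups varied more. The median coefficient of variation over all genes was 8.67% in KO, 7.88% in WT, 15.05% in Fst vector and 14.4% in GFP vector libraries. With this shared estimate 412 genes passed in Fst vector against GFP vector, where 12 passed in the fit of those groups alone. The adjusted p of the difference rest on the same shared estimate. The difference is read with that limit. The difference was past the threshold for 2 of 31 members, Cdhr1 and Cdh23, against 0.281% of the 15632 genes tested. Both genes had been named in the choice of the members with results of these data known. At an unadjusted p under 0.05 there were 8 of 31 members, against 9.95% of all genes. There were 4 positive ones, against 4.31% of all genes, and 4 negative ones, against 5.65%.

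For Cdhr1 the difference was 1.93 ± 0.29 on the log2 scale, with an adjusted p of 0.00871 in edgeR's quasi-likelihood test. Averaged on the log scale, the Fst vector and WT groups lay 1.95-fold above the KO and GFP vector groups. All 6 Fst vector and WT libraries (13.4 to 21.5 CPM) lay above all 6 KO and GFP vector libraries (6.04 to 10.6 CPM). Without any 1 of the 12 libraries the adjusted p ran from 0.000569 to 0.0493, so Cdhr1 passed the threshold each time.

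For Cdh23 the difference was 3.67 ± 0.58, with an adjusted p of 0.017, and the Fst vector and WT groups lay 3.57-fold above the KO and GFP vector groups on average. All 6 Fst vector and WT libraries lay above all 6 KO and GFP vector libraries here too, but narrowly at the border, since WT M1 had 3.36 CPM and GFP F had 3.15 CPM. Most of the difference came from the vector comparison (3.05) and less from KO against WT (-0.63). Without any 1 of the KO or WT libraries the gene no longer passed, with an adjusted p of 0.0561 to 0.0721. Without any 1 of the vector libraries it passed, at 0.00186 to 0.0371.

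The pattern in which every Fst vector and WT library lies above every KO and GFP vector library was met by these 2 members of 31, against 0.23% of all genes. Both had been named in the choice of the members with results of these data known, so this share is not evidence about the family. The reverse pattern was met by 0 members, against 0.096% of all genes. The members with the next smallest p were Cdh24 at 1.02 ± 0.25 (adjusted p 0.126) and Cdh4 at 1.34 ± 0.35 (adjusted p 0.141), neither of which passed, though DESeq2 called both (adjusted p 0.0337 and 0.0277). In the negative direction Cdh7 was at -2.36 ± 0.94 (adjusted p 0.421), Pcdh7 at -1.27 ± 0.56 (0.49), Cdhr2 at -1.10 ± 0.50 (0.477) and Pcdh1 at -0.35 ± 0.16 (0.464). With the replicate as a block within each table, Pcdh7 passed as well (-1.26, adjusted p 0.0329). That block also pairs KO and WT libraries by name, although same-named ones had r of only 0.0607 for M1, 0.130 for F1 and -0.0805 for M2. The call of Pcdh7 therefore rests on a pairing that is not established.

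**Figure D4:**
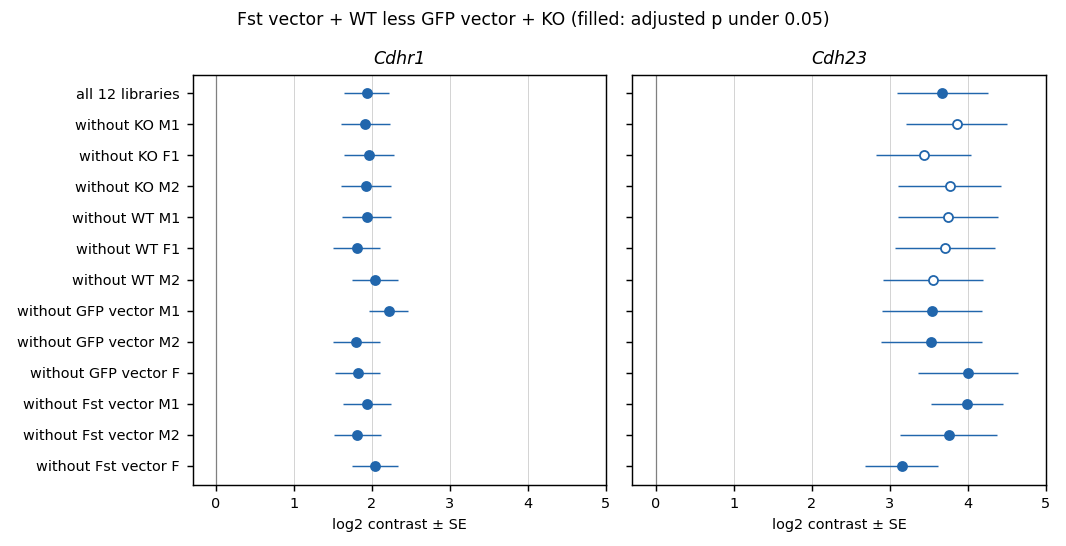
Difference of the effects for Cdhr1 and Cdh23 on the log2 scale with its standard error, over all 12 libraries and without each library in turn; filled points have an adjusted p under 0.05. The Cdhr1 points lie between 1.80 and 2.21 and are all filled, and the Cdh23 points lie between 3.15 and 4.01 with open points where a KO or WT library was left out.

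Apart from these contrasts, the 6 vector libraries differed from the 6 others in a group of abundant members. They lay below all KO and WT libraries for 6 of 31 members, namely Cdh11, Pcdh1, Pcdh17, Pcdh19, Pcdh20 and Pcdh9, against 4.25% of all genes. They lay above them for Pcdh8, against 7.01% of all genes. Pcdh9, a delta-1 protocadherin, had 77.3 to 79.8 CPM in KO and 75.5 to 80.7 CPM in WT libraries, and 50.6 to 74.2 CPM in Fst vector and 49.6 to 59.2 CPM in GFP vector libraries. Cdh11, a type II cadherin first known from bone, had 46.8 to 56.8 CPM in KO and 48.6 to 59.1 CPM in WT libraries, and 31.8 to 37.7 CPM in Fst vector and 37.3 to 41.3 CPM in GFP vector libraries. Whether this goes with the vector or with the table cannot be told apart, and no test is given.

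The members were also less uniform within the vector groups. The median coefficient of variation of the 31 members was 7.96% in KO, 10.3% in WT, 23.2% in Fst vector and 29.7% in GFP vector libraries, where the medians over all genes were 8.67%, 7.88%, 15.05% and 14.4% for the same groups. Some members had the same order of libraries, and others had the opposite order, which was not tested. In GFP vector libraries Cdh7, Pcdh7 and Cdh13 were all lowest in M1, and Pcdh15, named here after its values were seen, had 5.44, 13.9 and 15.1 CPM in M1, M2 and F. In Fst vector libraries these 4 genes were all lowest in M1 and highest in F, with Cdh13 at 55.4, 62.2 and 91.0 CPM. They were not alone, as Cdh2, Cdh4, Cdh9 and Cdh23, among others, were also lowest in M1 of both vector groups. The other way, Pcdh1, Pcdh20, Pcdh19, Cdh8, Pcdh10, Cdh24 and Cdhr1 were highest in M1 of the GFP vector group. GFP F was the highest of all 12 libraries for Pcdh8 and for Cdh22, which had 32.5 CPM there against 6.77 to 13.8 CPM elsewhere. GFP F is also the library with the high sum of astrocyte markers, and its part in these values was not tested.

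The members lie on 13 chromosomes, some of them side by side. Chromosomes 8 and 14 hold 6 members each and chromosome 15 holds 5. Cdh7, Cdh19 and Cdh20 lie within one stretch of chromosome 1, from 104768529 to 110977584, and differed among themselves: the log2 changes of KO over WT were 0.91, -0.16 and 0.13 for the 3 genes. Fst vector over GFP vector gave -1.42 for Cdh7, 0.04 for Cdh19, a cadherin of the Schwann cell lineage, and 0.19 for Cdh20. Of the 4 tested type II cadherins on chromosome 15, Cdh9 was at 0.20, Cdh10 at 0.27, Cdh12 at 0.40 and Cdh18 at 0.01 in Fst vector over GFP vector, with SE of 0.18, 0.21, 0.27 and 0.39. Cdhr1 and Cdh24 share chromosome 14 with Pcdh8, Pcdh9, Pcdh17 and Pcdh20 but are not neighbours there.

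The remaining members did not pass the threshold in either comparison. Cdh5, or VE-cadherin, the cadherin of endothelial junctions, had a log2 change of -0.08 ± 0.18 in KO over WT and 0.02 ± 0.30 in Fst vector over GFP vector. Cdh8, a type II cadherin of hippocampal synapses, had 0.05 ± 0.07 in KO over WT and -0.34 ± 0.24 in Fst vector over GFP vector. Cdh18 had 0.41 ± 0.28 in KO over WT and 0.01 ± 0.39 in Fst vector over GFP vector, at 1.77 to 5.55 CPM per library. Pcdh18, a delta-2 protocadherin near the low end of those tested, had 0.02 ± 0.34 in KO over WT and 0.43 ± 0.39 in Fst vector over GFP vector.

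The proteins that cadherins work with were described by 5 lists of 69 genes, chosen with earlier results of these data known. They cover catenins and junction linkers, enzymes that process cadherins, Usher and tip link partners, other members of the superfamily, and cytoplasmic partners of delta protocadherins. In KO against WT, 0 of 54 tested partners passed, against 0.0268% of all genes, and 4 had an unadjusted p under 0.05, a share near the 5.96% of all genes. The one with the smallest p was Dchs1, a giant cadherin of planar polarity, at 14.6 ± 0.398 CPM in KO and 20.1 ± 3.40 CPM in WT libraries (SD, n = 3 each), a log2 change of -0.44 ± 0.12 (adjusted p 0.351 in edgeR and 0.999 in DESeq2). Adgrv1, the large Usher receptor, came next at -0.62 ± 0.25 (adjusted p 0.751). Of the 15 catenins and linkers tested, 4 estimates were above 0 and 11 below, with a median of -0.05.

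In Fst vector against GFP vector, 0 of 56 partners passed in edgeR, against 0.0798% of all genes, and 10 had an unadjusted p under 0.05, against 9.51% of all genes. Fat3, a giant cadherin of neuronal shape, averaged 35.7 ± 9.24 CPM in Fst vector and 59.7 ± 6.37 CPM in GFP vector libraries (SD, n = 3 each), a log2 change of -0.78 ± 0.19 (adjusted p 0.235 in edgeR and 0.0226 in DESeq2). Pcsk5, a proprotein convertase of the class that cleaves proteins on the secretory route, had 21.4, 21.1 and 19.4 CPM in Fst vector libraries, against 37.4, 56.5 and 83.1 CPM in GFP vector libraries. It had 38.3, 40.3 and 37.4 CPM in KO libraries, against 34.2, 32.1 and 39.4 CPM in WT libraries. The Fst vector libraries lay below all the others. The log2 change was -1.55 ± 0.26 in Fst vector over GFP vector (adjusted p 0.117 in edgeR and 4.92e-06 in DESeq2) and 0.15 ± 0.09 in KO over WT (adjusted p 0.933).

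The difference of the effects was past the threshold for 1 of 56 partners, Pcsk5, at -1.71 ± 0.30 (adjusted p 0.0294), against 0.281% of all genes. At an unadjusted p under 0.05 there were 10 of 56 partners, against 9.95% of all genes. Without any 1 of the KO, WT or Fst vector libraries Pcsk5 did not pass, with an adjusted p of 0.0689 to 0.129. Without any 1 of the GFP vector libraries it passed, at 0.000238 to 0.0393. The list of catenins and junction linkers gave 0 calls of 15 tested, with a median difference of -0.06, and of the 7 Usher and tip link partners tested 3 were above 0 and 4 below, with a median of -0.07.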

How the data were processed

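Total RNA of the dentate gyrus was sequenced in 12 libraries. Raw counts of reads for each Ensembl gene were deposited by the authors in 2 tables, KO with WT and Fst vector with GFP vector, as the columns of the files show. Per the submitters' processing notes the genome was GRCm38. The aligner, the counter, the annotation and the handling of strand were not given in the sources used here. Lines without a gene ID (12 in the vector table, 6 in the other) held no counts and were left out. CPM were computed from the deposited counts and library totals, and exon lengths, symbols and coordinates came from GENCODE M21. The promoter windows came from RefSeq; Cdh4 was not in that table.

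Each comparison was fitted over all genes of its own 6 libraries with edgeR 4.0.16 (R 4.3.3): TMM scaling, filterByExpr, robust quasi-likelihood test, Benjamini-Hochberg adjustment, threshold 0.05. The difference of the effects was fitted on all 12 libraries. SE is the log2 change over the square root of F. The procedure was tested on simulated data for KO against WT and for Fst vector against GFP vector, but not for the difference of the effects. DESeq2 1.42.0, other scaling, no filter, further terms and leaving out each library were the alternatives. Replicates differed with a chi-square of 2.39 to 31.5 per degree of freedom, so no 2 replicates of a group agreed within sampling noise.

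Same-named vector libraries deviated together (r = 0.325 for M1, 0.138 for M2 and 0.390 for F), so the name was taken as a pairing there; it comes from the data, as no label states it, and Fst M2 with GFP M1 also reached 0.119.

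The members, roles, partner and marker lists were chosen with earlier results of these data known. Library values are printed for Cdhr1, Cdh23, every member called, the 5 smallest p in each direction per comparison and the 6 highest levels. Of partner genes, those called are named, or otherwise the 2 with the smallest p per comparison.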

Additional observations from a re-analysis of the deposited data

Results flagged for a closer look

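Among the 31 members and 56 partner genes tested, 3 had an effect of the Fst vector over the GFP vector that differed from that of KO over WT. The test was that of the difference itself, edgeR's quasi-likelihood test over all 12 libraries. Its estimate of the spread is shared between all groups, although the vector groups varied more. The difference was past the threshold for 0.281% of the 15632 genes tested. Cdhr1 and Cdh23 had been named in the choice of the members with results of these data known. The partner list that holds Pcsk5 was also chosen with earlier results of these data known. Cdhr1 had a difference of 1.93 on the log2 scale (adjusted p 0.00871), with log2 changes of 1.29 in Fst vector over GFP vector and -0.64 in KO over WT. Cdh23 had a difference of 3.67 (adjusted p 0.017), with log2 changes of 3.05 and -0.63 in the same comparisons, and did not pass without any 1 KO or WT library (adjusted p 0.0561 to 0.0721). Pcsk5, a gene of the list of enzymes that process cadherins, had a difference of -1.71 (adjusted p 0.0294), with log2 changes of -1.55 and 0.15, and did not pass without any 1 KO, WT or Fst vector library (adjusted p 0.0689 to 0.129).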

How the results depend on the processing

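Of the members and partner genes named by rule, 0 changed direction under any setting run. In KO against WT, 4 genes passed, against 46 without the filter on low counts, 30 with sex by title as a term, 9 with the share of ribosomal RNA as a term, 1 in the fit of all 12 libraries, 20 without the 5 libraries high in ribosomal RNA, and 2 to 17 without 1 library (7 without KO M2, 17 without WT F1, 2 without WT M2). Members passing were 0, but 2 without the filter (Cdhr1, adjusted p 0.00907, and Pcdh7, 0.0106), 1 with the sex term (Cdhr1, 0.0304), and 0 without any 1 library. KO and WT libraries share only a name (r = 0.0607 for M1, 0.130 for F1 and -0.0805 for M2); with the replicate block 23 genes and 1 member passed (Cdhr1, 0.0454). Not every library correlated best with its own name.

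In Fst vector against GFP vector, 12 genes passed, against 250 in DESeq2, 230 without the filter, 132 with the sex term, 412 in the fit of all 12 libraries, 0 without the libraries high in ribosomal RNA, and 1 to 29 without 1 library (2, 1 and 3 without Fst M1, M2 and F, 29 and 4 without GFP M1 and M2). Members passing were 0, but 3 in DESeq2, 4 without the filter (Cdh23, Cdh24, Cdh4 and Cdhr1), 2 with the sex term, 4 in the fit of all 12 libraries, and 0 to 1 without 1 library (Cdhr1 without GFP M1). With the replicate block 141 genes and 2 members passed. For the difference of the effects 2 members passed, 4 in DESeq2 and 1 to 3 without 1 library. With the replicate block, which there also pairs KO and WT libraries by name alone, 3 members passed. The replicate block changed no other call of a named member. Over all named genes, called or not, leaving out 1 library left 234 values on the same side of the threshold, brought 3 past it and ended 15 calls, all 15 in the difference for Cdh23 and Pcsk5; the other settings left 207 on the same side and brought 30 past it. The cause was not tested.

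Leaving out the libraries high in ribosomal RNA was chosen after seeing the data; it leaves 1 Fst vector library, assumed to vary like the others, and this alternative was not run for the difference. Members at a few CPM rest on few counts: Cdh23 had 14 to 48 in KO and WT libraries.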
